A study of Mus musculus with 8 samples.

Results

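Transcripts of the immunoglobulin loci were counted in LEPR+ stromal cells sorted from mouse bone marrow. The genes were the rows of the count table whose mouse symbol begins as those of the heavy chain V and constant genes, the kappa V and constant genes, or the lambda V and constant genes, and whose counts over all 8 libraries sum to at least 100. Of 52636 genes in the table, 382 had such a symbol and 144 reached that sum. They were 61 heavy chain V genes (Ighv), 68 kappa V genes (Igkv), 3 lambda V genes (Iglv), 7 heavy chain constant genes, 4 light chain constant genes and 1 gene caught by its spelling alone, Ighmbp2, a helicase gene on chromosome 19. Of the other rows, 171 had no count and 67 had between 1 and 99. The genes were thus chosen by their summed counts over all libraries, and their being detected is no result. The lowest rows inside the threshold had 104 counts (Ighv9-1) and 107 counts (Igkv2-116 and Ighv3-5), and the highest outside it had 97 (Ighv1-39) and 83 (Ighv1-23). The rows of the 3 loci below the threshold held 1761 counts together, against 2958953 in the 143 genes above it.

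All mice were C57BL/6 and received 150 µg of protein into a vein each week for 3 weeks. The control group was given HEL-Ig, an IgG1 against hen egg lysozyme, and the other group LTβR-Ig, a soluble decoy receptor that binds lymphotoxin β receptor ligands. LEPR+ cells without CD45, Ter119, CD31 and CD144 were sorted and then re-sorted, and their polyA RNA was sequenced as 76 bp read pairs. There were 4 libraries per group, and the labels do not say whether each came from 1 mouse, from a pool or from a separate sort, so a p-value here measures library-to-library spread, which may be technical.

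An antibody is built from heavy and light chains. Each B cell joins 1 V gene to short D or J segments in front of a constant region, so that its descendants share the same V genes. The heavy chain constant gene sets the class: Ighm gives IgM, Ighd IgD, the Ighg genes IgG and Igha IgA. Plasma cells, the antibody-secreting end stage of the B lineage, hold very large amounts of these transcripts and reside in bone marrow near CXCL12-producing stroma, whereas LEPR+ stromal cells are not known to rearrange these loci.

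Total counts lay between 52378101 and 64403177 per library, and a count of 0 allows up to 0.0466 to 0.0573 CPM (counts scaled by library size) at 3 counts. Stromal genes were high in each library. Lepr, the receptor used for the sort, lay between 3159 and 4498 CPM after TMM scaling, and Cxcl12, a niche chemokine of these cells, was between 13393 and 21792 CPM. Ptprc, which encodes the CD45 used to remove blood cells, had 21.7 to 61.1 CPM. RNA of blood cell genes was present too. A list of 12 neutrophil genes summed to 4130 to 9495 CPM, and 9 erythroid genes to 21649 to 54767 CPM. In bulk RNA, fewer cells of a type and less RNA per cell cannot be told apart.

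The 143 immunoglobulin genes took up to 1.24% of all counts, and their share differed more between libraries of a group than between the groups. It was 1.24, 1.01, 0.146 and 0.178% in control replicates 1 to 4. In LTβR-Ig replicates 1 to 4 it was 0.703, 1.05, 0.470 and 0.172%. Control replicates 3 and 4 and LTβR-Ig replicate 4 were low, control replicates 1 and 2 and LTβR-Ig replicate 2 were high, and the groups overlapped. The mean was 0.644 ± 0.565% for the controls and 0.599 ± 0.372% for LTβR-Ig (SD over 4 libraries each), a ratio of 0.93, whereas the highest library had 8.5 times the share of the lowest. The exact (Clopper-Pearson) 95% interval of the lowest share was 0.145 to 0.147%. Such intervals cover counting error only, since reads are not independent molecules.

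**Figure D1:**
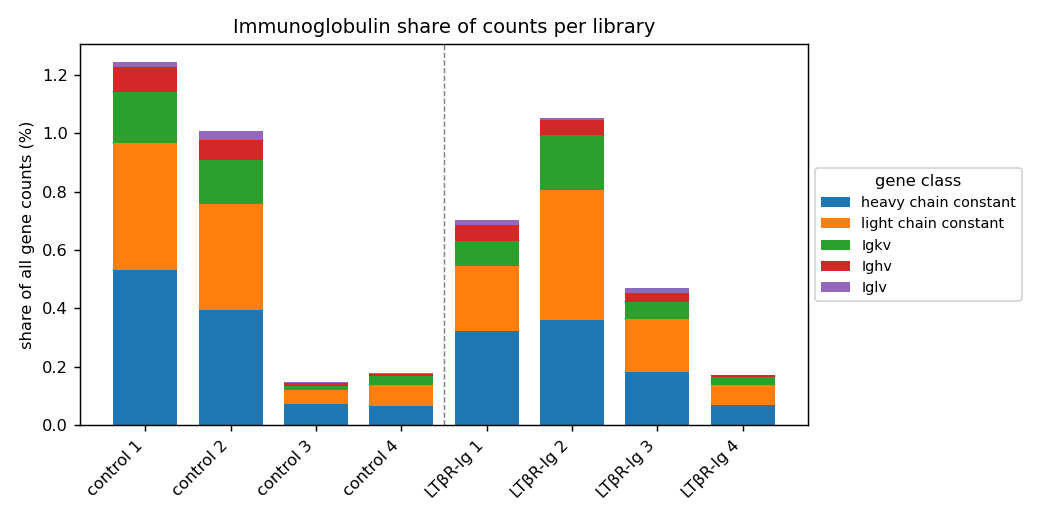
Stacked bars give the share of all gene counts (%) taken by 5 classes of immunoglobulin genes in each of the 8 libraries, control on the left of the dashed line and LTβR-Ig on the right. Control replicates 1 and 2 and LTβR-Ig replicate 2 stand above 1%, and control replicates 3 and 4 and LTβR-Ig replicate 4 below 0.2%.

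V gene counts were also set against constant gene counts. Ighv counts were 11.1 to 12.2 per 100 heavy chain constant counts in the 3 libraries with the lowest immunoglobulin share and 14.3 to 17.9 in the other 5, and Igkv counts were 35.2 to 47.5 per 100 Igkc counts. Rows for the joining and diversity segments, 36 in all, held at most 39 counts in a library. Ighmbp2 was between 1.70 and 5.45 CPM in every library.

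Heavy chain class differed strongly between libraries. Ighm took 48.2, 34.6, 96.4 and 30.6% of heavy chain constant counts in control replicates 1 to 4 and 58.3, 41.1, 19.6 and 73.8% in LTβR-Ig replicates 1 to 4. Igha took 28.8, 60.4, 2.54 and 31.3% in the controls and 41.1, 35.0, 34.3 and 15.96% in the LTβR-Ig libraries. Control replicate 3 had almost only Ighm. The Igha share was highest in control replicate 2 and the Ighm share lowest in LTβR-Ig replicate 3, both with Igha in the lead. The group means of Ighm were 52.5 ± 30.2 and 48.2 ± 23.3%, and those of Igha 30.8 ± 23.7 and 31.6 ± 10.9% (SD, n = 4 each), so both differences were smaller than the spread. Counts were also divided by the length of all annotated exons of a gene (1326 bp for Ighg2c, 1886 for Ighm, 2668 for Igha). Ighm was then first in 6 libraries and Igha in 2, control replicate 2 and LTβR-Ig replicate 3. That length need not be that of the expressed transcript, so this ranking is approximate. By counts alone, Ighg2b was first in control replicate 4, at 32.2% against 31.3% for Igha and 30.6% for Ighm.

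The IgG classes were uneven, and some were almost limited to 1 or 2 libraries. Ighg1 made up 15.4% of heavy chain constant counts in control replicate 1, 22.1% in LTβR-Ig replicate 3 and 4.89% in control replicate 4, and at most 1.15% in the other 5 libraries, with 0 counts in control replicate 2. Ighg2b made up 3.62, 4.95, 0 and 32.2% in the controls and 0.560, 9.09, 23.8 and 8.11% in the LTβR-Ig libraries. Ighg2c reached 3.85% in control replicate 1 and 7.72% in LTβR-Ig replicate 2 and at most 0.0172% elsewhere. Ighg3 reached 6.51% in LTβR-Ig replicate 2 and at most 0.125% elsewhere. All Ighg genes together took 16.3 ± 17.0% in control and 19.9 ± 19.8% in LTβR-Ig libraries. Ighg2b and Ighg2c share 87.8% of aligned bases. In control replicates 2 and 4 and LTβR-Ig replicate 4, Ighg2b had 12613, 12224 and 2926 counts and Ighg2c had 0. No Ighg2b read was thus counted as Ighg2c there. Whether Ighg2c reads were counted as Ighg2b was not tested.

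IgD and IgE were rare. Ighd, whose transcript marks naive B cells, had 260, 0, 422 and 376 counts in control replicates 1 to 4 and 0, 0, 177 and 316 in LTβR-Ig replicates 1 to 4. The 3 libraries at 0 allow an Ighd share of heavy chain constant counts of up to 0.00191% by the exact 95% interval, against up to 1.04% elsewhere. The same libraries had the lowest summed levels of 20 mature B cell genes, 305, 358 and 429 CPM in control replicate 2 and LTβR-Ig replicates 1 and 2, against 444 to 902 CPM in the other 5. That list was chosen with earlier results of these data known. Ighe had no count in any library.

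Kappa was the main light chain in all 8 libraries. Igkc, the single kappa constant gene (chr6:70726435-70726966 on the plus strand of GRCm38), took 93.2, 86.9, 84.1 and 95.8% of light chain constant counts in the controls. It took 86.1, 98.3, 84.1 and 98.9% in the LTβR-Ig libraries. The group means were 89.996 ± 5.41 and 91.9 ± 7.87% (SD, n = 4 each). Among lambda genes Iglc1 was the most variable, between 0.178 and 14.8% of light chain constant counts. Of the V genes that precede the lambda constants, Iglv1 held 68.6 to 96.9% of Iglv counts, Iglv2 0.279 to 31.4% and Iglv3 0 to 7.85%. The lowest Iglv1 share stood in LTβR-Ig replicate 4, which had only 105 Iglv counts.

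Among the 7 heavy chain and 4 light chain constant genes, Iglc3 was the one whose share was higher in every control library. No rate of such separation over other genes was computed for shares. By level, 4.89% of all tested genes had groups that did not overlap. It took 2.08, 0.350, 2.32 and 0.640% of light chain constant counts in the controls, and 0.166, 0.169, 0.289 and 0.123% in the LTβR-Ig libraries, with group means of 1.35 ± 0.998 and 0.187 ± 0.0714%. As a level, Iglc3 overlapped between the groups: 88.9, 12.5, 11.3 and 4.57 CPM against 3.68, 7.64, 5.27 and 0.876 CPM. Its log2 fold change was -2.75 (SE 0.99, 95% interval -4.998 to -0.49), and the edgeR adjusted p was 0.649. Without control replicate 1, the highest library, the log2 fold change was -1.11, and without any other single library it was -3.16 to -2.41. Iglc3 and Iglc2 share 95.5% of aligned bases, so the split of reads between them is uncertain.

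**Figure D2:**
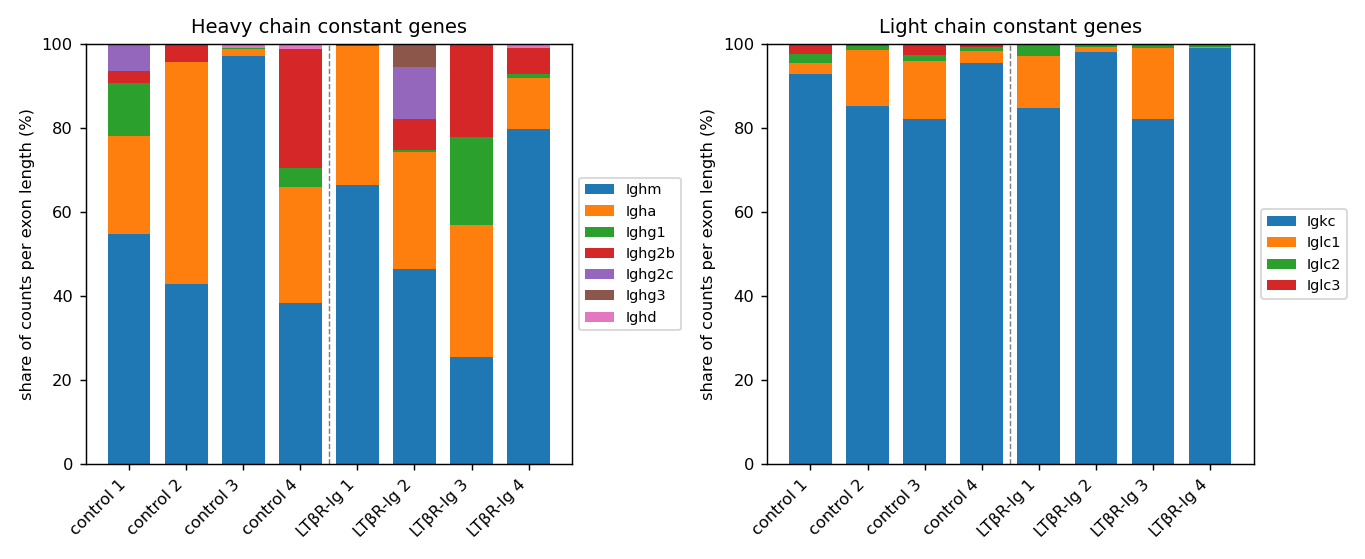
Stacked bars give the share (%) of each heavy chain (left) and light chain (right) constant gene in each library, computed from counts divided by exon length. Ighm leads in 6 libraries and Igha in control 2 and LTβR-Ig 3, and Igkc leads in all 8.

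V gene use was uneven and differed from library to library, with one heavy and one kappa gene recurring throughout. The 4 sequences shown here are the recurring genes and a second heavy and kappa pair for contrast. Ighv11-2 and Igkv14-126 were the recurring genes, and the chains they encode are known to pair in B-1 cell receptors that bind phosphatidylcholine. Ighv12-3 and Igkv4-91 encode the other well-known pair of that kind. Each line gives the last 100 bases of the V exon of the GENCODE M21 transcript on GRCm38, 5′ to 3′, with capitals on the last in-frame cysteine codon, after which the junction with the next segment begins.
Ighv11-2, chr12:114048241-114048340, minus strand: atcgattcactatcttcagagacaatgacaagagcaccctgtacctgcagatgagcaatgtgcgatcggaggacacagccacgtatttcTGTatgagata
Igkv14-126, chr6:67896543-67896642, plus strand: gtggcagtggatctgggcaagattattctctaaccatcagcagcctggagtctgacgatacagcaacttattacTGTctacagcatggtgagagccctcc
Ighv12-3, chr12:114366521-114366620, minus strand: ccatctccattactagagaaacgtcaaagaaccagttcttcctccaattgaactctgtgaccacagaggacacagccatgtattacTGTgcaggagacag
Igkv4-91, chr6:68768555-68768654, minus strand: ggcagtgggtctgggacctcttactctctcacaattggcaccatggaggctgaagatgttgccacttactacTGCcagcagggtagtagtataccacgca
The kappa exons hold 23 and 25 bases after the capitals and the heavy chain exons 8 and 11, since heavy chains draw the rest of this loop from D and J segments.

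Ighv11-2 was present in every library. It held 25.7, 7.93, 29.7 and 11.5% of Ighv counts in control replicates 1 to 4 and 32.1, 7.82, 7.76 and 25.5% in LTβR-Ig replicates 1 to 4. It ranked first in 2 libraries and never below place 7 of 61. Its mean share over the 8 libraries was 18.5%, above the 9.01% of the next gene, Ighv1-55. Ighv11-1, its closest copy at 98.9% of aligned bases, had 119 counts in all, so a few reads may belong to either.

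Igkv14-126 showed the same recurrence among kappa genes. It held 15.97, 9.15, 41.1 and 36.6% of Igkv counts in the controls and 42.3, 8.64, 10.3 and 21.2% in the LTβR-Ig libraries. It was first in 2 libraries, among the first 3 in 7 libraries and in place 5 in LTβR-Ig replicate 3. Its mean share was 23.2%, against 11.2% for the next gene, Igkv6-23. Its closest copy, Igkv14-111, shared 91.6% of aligned bases and had 8035 counts. In control replicate 2 and LTβR-Ig replicates 2 and 3, both Ighv11-2 and Igkv14-126 were low within their sets, below 8% and below 10.4%. Bulk counts do not show which heavy and light chains came from the same cell.

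The other heavy and kappa pair did not recur. Ighv12-3, named after its values were seen, had 1267 counts in control replicate 2, 291 and 1171 in LTβR-Ig replicates 1 and 2, and 0 in the other 5 libraries. Igkv4-91 had 1233 counts in control replicate 2, 18, 3160, 3906 and 842 in LTβR-Ig replicates 1 to 4, and 0 in the other 3 controls. Each library with Ighv12-3 counts also had Igkv4-91 counts, while LTβR-Ig replicates 3 and 4 had Igkv4-91 alone.

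The leading heavy chain V gene changed from library to library. Control replicates 1 to 4 were led by Ighv11-2, Ighv5-9-1, Ighv4-1 and Ighv1-55, with 25.7, 15.6, 32.1 and 43.5% of Ighv counts. LTβR-Ig replicates 1 to 4 were led by Ighv11-2, Ighv7-1, Ighv10-3 and Ighv1-55, with 32.1, 22.8, 34.8 and 27.3%. These were 6 different genes, and Ighv11-2 and Ighv1-55 each led 1 library of each group. The mean share of the leader was 29.2 ± 11.7% for the controls and 29.3 ± 5.30% for LTβR-Ig (SD over 4 libraries each). The widest exact 95% interval among leaders above belonged to a library with few Ighv counts: 42.1 to 44.98% for Ighv1-55 in control replicate 4, from 4617 counts.

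Kappa leaders were as varied. In the controls they were Igkv12-46, Igkv8-30, Igkv14-126 and Igkv6-23, with 19.1, 25.4, 41.1 and 51.1% of Igkv counts. In the LTβR-Ig libraries they were Igkv14-126, Igkv9-120, Igkv6-23 and Igkv12-89, with 42.3, 16.3, 29.4 and 25.1%. In control replicate 4, Igkv6-23 and Igkv14-126 together left little room for other kappa genes: the first 3 genes held 90.2%. The mean share of the leader was 34.2 ± 14.6% in control and 28.2 ± 10.8% in LTβR-Ig libraries. Dividing by exon length changed the leader of neither set in any library.

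Several other V genes had most of their counts in 1 or 2 libraries. Ighv1-55 held 43.5% in control replicate 4 and 27.3% in LTβR-Ig replicate 4 but at most 0.65% in the other 6. Ighv10-3 held 34.8% in LTβR-Ig replicate 3, 10.4% in control replicate 1, 1.65% in control replicate 2 and nothing in the other 5. Igkv6-23 held 51.1% in control replicate 4 and 29.4% in LTβR-Ig replicate 3, and also 4.68% in LTβR-Ig replicate 2 and 3.41% in control replicate 2. Igkv8-34, named after its values were seen, had 7435 counts in LTβR-Ig replicate 2 and none in any other library. Ighv9-4, named in the same way, had 5275 counts in LTβR-Ig replicate 1, 10 in control replicate 1 and none elsewhere.

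**Figure D3:**
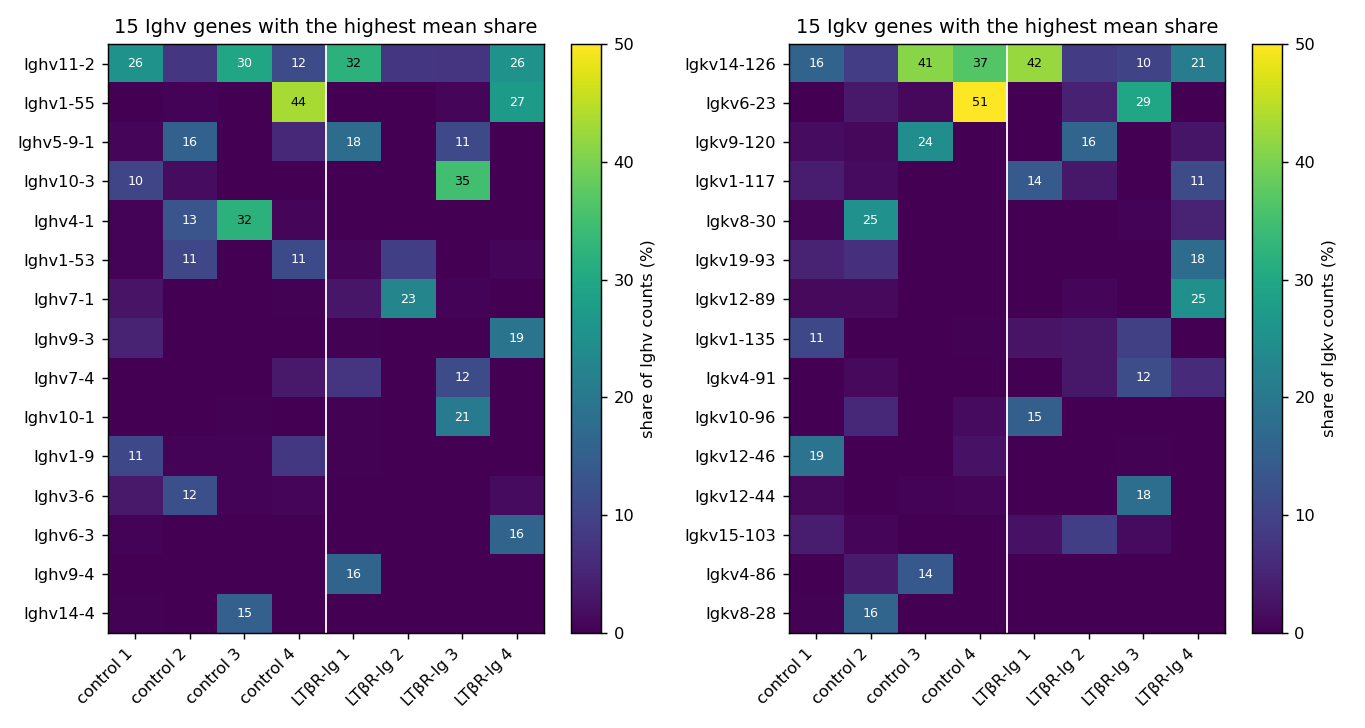
Colour gives the share (%) of Ighv counts (left) or Igkv counts (right) for the 15 genes of each set with the highest mean share, in rows, across the 8 libraries, in columns, with shares of 10% or more printed. The top row of each panel, Ighv11-2 and Igkv14-126, is coloured in every library, whereas most other rows have 1 to 3 bright cells.

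Diversity was low in terms of effective gene number. The inverse Simpson number, which is the count of equally used genes that would give the same unevenness, was 4.33 to 9.87 for Ighv and 2.52 to 13.6 for Igkv. It averaged 6.83 ± 2.86 for Ighv in the controls and 5.92 ± 1.72 with LTβR-Ig, and 6.34 ± 3.87 and 7.48 ± 4.18 for Igkv (SD over 4 libraries each). Between 7 and 14 Ighv genes and between 6 and 19 Igkv genes held at least 1% of their set in a library. The number of genes with at least 10 counts, 12 to 41 for Ighv and 16 to 55 for Igkv, was highest in control replicate 1, which also had the most V counts of both sets.

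Single libraries held most of the transcripts of many V genes. Of the 132 V genes, 53 had at least 90% of their summed CPM in 1 library, which is 40.2%, and the median V gene had 82.7% in its highest library. Among 15794 other genes with 100 counts or more and no more than the highest V gene, 1.01% were so concentrated, and the median was 19.5%. Control replicate 1 was the library of 22 of the 53 genes, LTβR-Ig replicate 2 of 12, control replicate 2 and LTβR-Ig replicate 1 of 7 each, and the other 4 libraries of 5 in all. Among the 129 Ighv and Igkv genes, 82 reached 10 counts in 1 to 3 libraries, 44 in 4 to 7 libraries and 3 in all 8. The 3 were Ighv11-2, Igkv14-126 and Ighv1-41, a gene annotated as a pseudogene with 16 to 73 counts in each library. The lambda genes Iglv1 and Iglv2 also reached 10 counts in all 8.

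**Figure D4:**
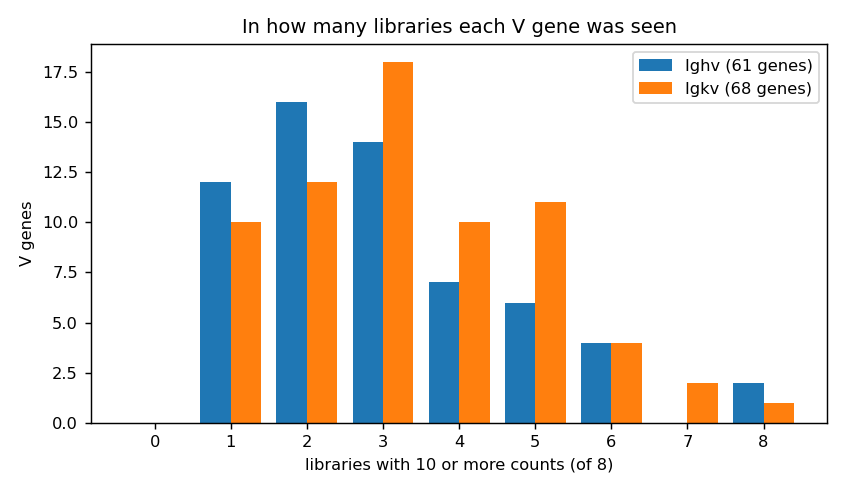
Bars give the number of Ighv and Igkv genes (vertical axis) by the number of libraries in which the gene had 10 or more counts (horizontal axis, of 8). The bars at 1 to 3 libraries hold 82 of the 129 genes and the bar at 8 holds 3.

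Any pair of libraries shared a modest part of V use. The shared part, summed over genes as the smaller of the 2 shares, had a median of 23.4% for Ighv (range 8.44 to 42.1%) and 24.7% for Igkv (12.3 to 42.7%) over the 28 pairs of libraries. In the control replicate 3 and LTβR-Ig replicate 1 pair, Igkv14-126 alone gave 41.1 of the 41.7% shared, and Ighv11-2 gave 29.7 of the 30.4% shared. The median was 25.5% for Ighv within control pairs, 12.9% within LTβR-Ig pairs and 24.1% between the groups. For Igkv these medians were 21.7, 21.3 and 27.0%. Pairs share libraries with each other, so these values are a description.

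By V gene family, Ighv1, the largest with 25 of the genes, had a mean of 29.7% of Ighv counts and between 10.3 and 67.2% in a library. The Ighv11 family followed with 18.5% and Ighv5 with 13.8%. The Ighv10 family, with 2 genes, held 55.6% of Ighv counts in LTβR-Ig replicate 3 and at most 10.45% elsewhere, and its members Ighv10-3 and Ighv10-1 share 96.9% of aligned bases. Among kappa families Igkv14 had a mean of 24.4% and Igkv6 of 13.9%.

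LTβR blockade was compared with control gene by gene. Of the 144 genes, 60 passed the filter on low counts and none was called by edgeR at an adjusted p of 0.05, where 0.0374% of the 16045 genes tested were called. At an unadjusted p under 0.05, 11 of the 60 stood out, 4 higher and 7 lower with LTβR-Ig, against 6.32% of all tested genes (3.39% higher and 2.93% lower). The DESeq2 Wald test called 4 of them, Ighv4-1, Igkv4-86 and Iglc3 as lower and Ighv1-72 as higher, where it called 1.23% of all genes, and gave 16 of the 60 no adjusted p. Ighv4-1 and Igkv4-86 entered the test only through the controls, since all their LTβR-Ig libraries were at 0. They are also 2 of the 7 lower genes. Neither their calls nor the 11 of 60 is thus read against the rates over all genes. The smallest edgeR adjusted p was 0.312, for Ighv4-1. The standard error of the log2 fold change had a median of 2.06 for the 60 genes and 0.34 for all tested genes, so this design could resolve only very large changes in them. The median log2 fold change was 0.06 in the 60 genes, 0.07 without the pair of genes listed at 0 in one group, and 0.00 in all tested genes.

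The main constant and recurring V genes had small fold changes with wide intervals. Igkc was 3976, 3098, 410 and 684 CPM in the controls and 1907, 4457, 1533 and 704 CPM in the LTβR-Ig libraries, which gave a log2 difference of 0.07 (95% interval -1.66 to 1.81, SE 0.77). Ighm had -0.17 (interval -1.86 to 1.53) and Igha -0.29 (interval -2.95 to 2.37). Ighv11-2 had -0.23 (interval -2.47 to 2.01) and Igkv14-126 0.12 (interval -1.36 to 1.59). The edgeR adjusted p of each was 1.00 when rounded. The signs of all 5 changed when a single library was left out, and an interval this wide does not show that the groups were alike. Ighmbp2 had 0.11 (SE 0.50).

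The 6 genes with the smallest p were Iglc3 and 5 heavy or kappa V genes. Ighv4-1 was 3.48, 91.2, 25.9 and 0.717 CPM in the controls and 0 in all LTβR-Ig libraries. Igkv4-86 was 0.176, 53.2, 19.9 and 0.222 CPM in the controls and likewise 0 in all LTβR-Ig libraries. These were the 2 tested genes whose groups did not overlap, where 4.89% of all tested genes did not. With every LTβR-Ig library at 0, both passed the filter on low counts through the controls alone and so had to differ, and nothing is read from that count. For both genes control replicates 2 and 3 held most of the CPM.

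Ighv3-6 was 28.5, 85.5, 0.392 and 0.597 CPM against 0, 0.981, 0.159 and 1.13 CPM, and its edgeR adjusted p was 0.597. Ighv1-9 was 89.5, 3.85, 0.464 and 6.42 CPM against 1.39, 0, 0 and 0 CPM, with an edgeR adjusted p of 0.635. Ighv1-72 was the one with higher values in LTβR-Ig libraries, 0.227, 3.51, 10.2 and 0.195 CPM against 0.176, 0.0916, 0 and 0.239 CPM, with an edgeR adjusted p of 0.613. In each of the 3, 1 or 2 libraries carried the difference and the groups overlapped.

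Markers of B lineage cells were examined for whether they moved with immunoglobulin levels. Mzb1, a chaperone of the secretory pathway in plasma cells, was 49.0, 30.6, 4.91 and 8.73 CPM in the controls and 16.3, 43.0, 6.47 and 4.73 CPM in the LTβR-Ig libraries. Across the 8 libraries log2 Mzb1 and log2 Igkc had Pearson r = 0.922 (exact permutation p = 0.00352, adjusted 0.0211 over 6 relations) and Spearman rho = 0.857 (exact permutation p = 0.0107, adjusted 0.0643). Without the 2 libraries farthest from the median of Igkc, control replicate 3 and LTβR-Ig replicate 2, r was 0.896 (exact permutation p = 0.025, adjusted 0.15). With the group means removed r was 0.966.

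Jchain, which links IgM and IgA into polymers, was 304, 1171, 161 and 145 CPM in the controls and 190, 968, 76.1 and 182 CPM in the LTβR-Ig libraries. Replicate 2 of each group was far above the rest. Its relation with Igkc had r = 0.661 (exact permutation p = 0.0794, adjusted 0.159) and rho = 0.762 (exact permutation p = 0.0368, adjusted 0.110), and r = 0.570 without the same 2 libraries. Cd79a, part of the B cell receptor, had r = 0.263 (exact permutation p = 0.613, adjusted 0.736) and rho = 0. Vpreb1, of the pre-B cell receptor, had r = -0.470 (exact permutation p = 0.244, adjusted 0.365) and rho = -0.571.

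The erythroid gene Hbb-bs, a haemoglobin chain, went the other way, with r = -0.798 (exact permutation p = 0.0247, adjusted 0.0740) and rho = -0.690, and r = -0.739 without the 2 libraries. Lepr had r = -0.176 (exact permutation p = 0.751, adjusted 0.751) and rho = -0.405. Of the 6 relations, that of Mzb1 by Pearson's r alone passed 0.05 after adjustment.

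**Figure D5:**
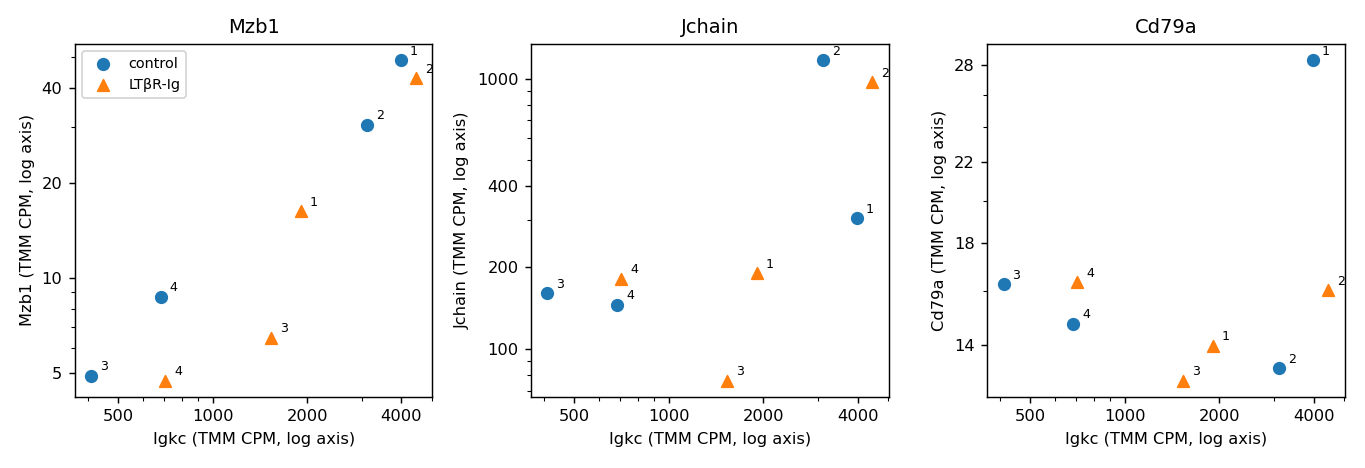
Points give Igkc (horizontal) against Mzb1, Jchain and Cd79a (vertical) in TMM-scaled CPM on log axes, with 1 point per library, circles for control and triangles for LTβR-Ig, and replicate numbers beside them. Mzb1 rises with Igkc (r = 0.922), Jchain is far higher in replicate 2 of each group, and Cd79a spans a narrow range except in control 1.

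Whole marker lists were summed as well. Of the 18 plasma cell genes, 0 were called by edgeR. At an unadjusted p under 0.05, 1, Xbp1, was higher, where 3.39% of all tested genes were higher. The 18 genes summed to 1400 to 2372 CPM in control and 1702 to 2285 CPM in LTβR-Ig libraries. Much of that sum came from genes other than Jchain and Mzb1, whose wider ranges are given above. Prg2 was at 52.3 to 1288 CPM, Sdc1 at 209 to 367 and Xbp1 at 179 to 324, while Igkc ranged from 410 to 4457 CPM. Prg2 was lowest in LTβR-Ig replicate 2, where Igkc was highest. The sum was lowest, at 1400 CPM, in control replicate 1, which had the highest immunoglobulin share. It is therefore not read as a plasma cell level. Irf4, Tnfrsf17, Cd28, Eaf2 and Prdm1 were at 0 in at least 1 library. Tnfrsf17, the BCMA receptor of plasma cells, was at most 2.04 CPM, and Prdm1, the factor that drives plasma cell identity, at most 2.64 CPM. The 20 mature B cell genes summed to 305 to 902 CPM in control and 358 to 865 CPM in LTβR-Ig libraries, and the 12 pro-B and pre-B cell genes to 79.3 to 132 and 77.3 to 128 CPM. Of the mature B cell list 18 genes were tested, and of the pro-B and pre-B cell list 10. None of either was called by edgeR, where 0.0374% of all tested genes were. None had an unadjusted p under 0.05, where 6.32% of all tested genes did. The share of each cell type in the immunoglobulin signal was not tested.

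Genes that serve immunoglobulin production or plasma cells were also listed. Of 16 genes for transcription and switching of the loci, 14 were tested and none was called, at an unadjusted p under 0.05 none either, with a median log2 fold change of -0.03. Rag1 and Rag2, which cut the loci, were at 0 in at least 1 library each. Of 15 genes for assembly and transport, 13 were tested, none passed at either threshold, and the median was 0.08. Pigr, the epithelial transporter of IgA, had no count in any library. Of 9 factors by which stroma supports plasma cells, such as Cxcl12, all were tested and none was called. At an unadjusted p under 0.05, 2 of the 9 were lower and none was higher. Of all genes tested, 2.93% were lower and 3.39% higher at that threshold. The median log2 fold change of the 9 was 0.22, against 0.00 over all genes tested.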

How the data were processed

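The table the authors deposited holds raw, unnormalized read counts of 52636 genes in 8 libraries. HISAT2, HTSeq and mm10 are named in the submitters' processing notes. Tool versions, annotation release, strand setting and treatment of reads that map to several V genes were not stated there, so counts of near-identical V genes are uncertain. Rearranged and mutated V regions differ from the reference, which can lower their counts.

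Groups and replicate numbers came from the sample titles. Symbols, coordinates and exon lengths came from GENCODE M21 on GRCm38 (mm10), to which 52489 IDs matched without their version. Genes and marker lists were chosen with earlier results of these data known. Shares are raw counts over all gene counts or over a set of genes, without Ighmbp2. Named were all constant and Iglv genes, the 10 Ighv and 10 Igkv genes with the highest mean share, each library's leader, the 6 smallest p, genes at the threshold of the count sum, and the marker genes, of each list up to 4 by level. Others are said to be chosen after their values were seen, which also holds for Ptprc, Igkv14-111, Ighv11-1 and the list genes named for being at 0.

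LTβR-Ig was compared with control by edgeR 4.0.16 in R 4.3.3 (TMM, filterByExpr with minimum count 10 and total 15, robust quasi-likelihood F test, no covariate), with Benjamini-Hochberg adjustment over 16045 genes and a threshold of 0.05. The test was tested on simulated data. CPM of single genes are TMM-scaled, whereas the summed CPM of marker lists and the CPM allowed by a count of 0 use unscaled library totals. Intervals are 95%. Relations used log2 of CPM plus 0.5 and two-sided exact permutation over 8 libraries. No p was computed for a summed share. Alternatives were other scalings, the DESeq2 1.42.0 Wald test, other filters, the replicate number as a block, other count sums, pooled counts and leaving out each library. Chosen after seeing the data were shares per exon length, rank correlation and relations without libraries. Libraries were checked for duplicates and all were kept.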

Additional observations from a re-analysis of the deposited data

Results flagged for a closer look

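Of 50 pairs of a quantity and a group that were examined, 10 had 1 library far from the other 3, by Dixon's test at the 95% level. That level assumes normal values, whereas most of these are shares bounded at 0, so no chance rate is set beside the 10. With 3 libraries at 0, as for Ighg3 in the controls, the test is passed whatever the size of the other value. Most concerned IgG classes. Among heavy chain constant counts, the Ighg2b share was 32.2% in control replicate 4 and 0 to 4.95% in the other controls. The Ighg1 share was 22.1% in LTβR-Ig replicate 3 and 0.00202 to 1.15% in the others of its group. The Ighg2c share was 3.85% in control replicate 1, with 0 to 0.0172% in the other controls, and 7.72% in LTβR-Ig replicate 2, with 0 to 0.0123% in the other LTβR-Ig libraries. The Ighg3 share was 0.0361% in control replicate 2, with 0 in the other controls, and 6.51% in LTβR-Ig replicate 2, with 0 to 0.125% in the others.

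The Iglc2 share of light chain constant counts was 3.08% in LTβR-Ig replicate 1 and 0.467 to 0.875% in the others of its group. The inverse Simpson number of Ighv genes was 8.48 in LTβR-Ig replicate 2 and 4.84 to 5.37 in the others. The Jchain level in control replicate 2 was 1171 CPM, with the other controls at 145 to 304 CPM. In LTβR-Ig replicate 2 it was 968 CPM, with the others of its group at 76.1 to 190 CPM.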

How the results depend on the processing

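The group differences of the immunoglobulin, kappa, Igha and Ighm shares and of the leading V gene's share moved by less than the larger group SD under every alternative run. That limit is wide. Without single libraries the difference was -12.8 to 10.4 percentage points for Ighm, -8.58 to 10.7 for Igha and -0.494 to 4.46 for kappa. For the leading Ighv gene it was -4.48 to 4.84, and for the leading Igkv gene -11.0 to -0.277. The immunoglobulin share difference was -0.0449 percentage points, and -0.211 to 0.155 without single libraries. Its mean within replicate numbers (the replicate block) equals that difference by arithmetic, so for this share the block is no check. With edgeR, 0 immunoglobulin genes were called under every scaling, filter, the block and each left-out library. DESeq2 called 4. At an unadjusted p under 0.05 edgeR had 11 of 60 genes, 52 of 144 with no filter, 6 of 43 with the strict filter, 8 of 60 with the block and 13 to 18 without single libraries. The 11 include Ighv4-1 and Igkv4-86, at 0 in all LTβR-Ig libraries, so these counts are not set against the rate over all genes.

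The submitters' design text speaks of pairs without saying what a pair shares, and the main test did not use the replicate numbers as pairs. Deviations from the group means correlated at 0.0699, 0.0193, 0.0326 and 0.0004 in same-numbered libraries. The other pairings had -0.0807 to 0.0658. Same-numbered libraries shared a median of 30.3% of Ighv use (range 8.44 to 42.1%) and 25.1% of Igkv use. Over all pairs of libraries the medians were 23.4 and 24.7%. Whether the numbers mark real pairs was not tested. With the block the log2 fold changes turned to 0.028 for Ighm, 0.29 for Igha, 0.10 for Ighv11-2 and -0.093 for Igkv14-126, and the cause was not tested. Without single libraries they ranged from -0.56 to 0.63 for Igkc, -0.57 to 0.51 for Ighm, -0.69 to 0.55 for Igha, -1.39 to 1.12 for Ighv11-2, -0.64 to 0.62 for Igkv14-126, -0.14 to 0.35 for Ighmbp2, -1.57 to 0.81 for Jchain and -1.35 to 0.26 for Mzb1.

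The relation of Igkc with Mzb1 lost its call as Spearman's rho (0.857, adjusted exact permutation p = 0.0643) and without 2 libraries (r = 0.896, adjusted exact permutation p = 0.15), which leaves fewer orders. Leaving out single libraries gave r of 0.899 to 0.973, with the adjusted exact permutation p at 0.0726 when LTβR-Ig replicate 1 was left out and 0.05 when LTβR-Ig replicate 2 was. For Cd79a, r ranged from -0.401 to 0.397, negative without control replicate 1. Few V counts (4033 Ighv counts in the poorest library) limit what can be said of rare V genes.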
